A study of Mus musculus with 6 samples.

Results

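The 10 genes described here are Lyve1, Prox1, Pdpn, Mmrn1, Reln, Maf, Foxc2, Piezo2, Stab1 and Cldn11, a set of genes linked to the identity of lymphatic endothelium, whose cells (LECs) form the inner wall of lymphatic vessels. They were taken by name, as every probe set whose platform annotation gave 1 of these symbols, which yielded 21 of the 45037 probe sets tested and 10 of 18193 genes. The tumour-associated LECs (3 arrays) came from MDA-MB-435 xenografts, tumours of a single human cancer line that was placed under the skin of mice and removed after 8 weeks. The other LECs (3 arrays) came from mammary skin without tumour, taken from balb-c/nude mice, a strain without a thymus that lacks most T cells. In all 6 samples the cells were located by briefly staining sections for the LYVE-1 protein, cut out by laser capture microdissection and amplified in 1 round of Ribo-SPIA, a linear cDNA amplification for very small RNA amounts. The samples are labelled as biological replicates but no animal is named, so p-values measure the spread between these samples, which may be partly technical. The comparison asks how tumour-associated LECs differ from normal LECs.

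Lymphatic identity rests on PROX1, a homeodomain transcription factor that turns venous endothelium into lymphatic endothelium and is needed to keep that state. MAF and FOXC2 are further transcription factors of LECs, FOXC2 in the collecting vessels and their valves. LYVE-1, a hyaluronan receptor, and podoplanin, a mucin-like glycoprotein that activates the platelet receptor CLEC-2, are surface proteins by which lymphatic vessels are recognised in tissue. None of these genes is used by LECs alone: Lyve1, Stab1 and Maf are also active in tissue macrophages, Pdpn in fibroblasts and basal keratinocytes, and Piezo2 in sensory nerves and Merkel cells.

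RefSeq promoter windows (GRCm38.p6, 250 bases before to 50 after a start site) were used for 6 of the 10 genes. Those of Prox1, Pdpn and Mmrn1 are shown because these genes had their lowest healthy-skin signal on the same array, as described below. Prox1 has a second window, not shown. Capitals mark matches on either strand to AACAAT (the core bound by SOX factors), AGGTCA (a nuclear receptor half-site), TGCTGA (a MAF half-site) or TATAAA (the TATA box).
Prox1, chr1:190170778-190171077, minus strand: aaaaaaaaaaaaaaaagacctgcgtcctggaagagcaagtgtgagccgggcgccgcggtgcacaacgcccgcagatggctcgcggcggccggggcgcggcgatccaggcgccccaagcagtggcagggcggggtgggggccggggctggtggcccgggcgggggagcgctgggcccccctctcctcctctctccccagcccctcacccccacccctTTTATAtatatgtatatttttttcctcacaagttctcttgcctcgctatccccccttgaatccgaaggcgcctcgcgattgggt
Pdpn, chr4:143299515-143299814, minus strand: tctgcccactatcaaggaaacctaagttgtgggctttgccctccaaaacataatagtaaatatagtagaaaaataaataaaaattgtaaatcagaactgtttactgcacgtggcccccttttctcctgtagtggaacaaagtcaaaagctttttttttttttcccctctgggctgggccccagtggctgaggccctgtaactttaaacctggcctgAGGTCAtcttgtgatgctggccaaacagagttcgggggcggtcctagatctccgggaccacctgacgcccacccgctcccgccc
Mmrn1, chr6:60944067-60944366, plus strand: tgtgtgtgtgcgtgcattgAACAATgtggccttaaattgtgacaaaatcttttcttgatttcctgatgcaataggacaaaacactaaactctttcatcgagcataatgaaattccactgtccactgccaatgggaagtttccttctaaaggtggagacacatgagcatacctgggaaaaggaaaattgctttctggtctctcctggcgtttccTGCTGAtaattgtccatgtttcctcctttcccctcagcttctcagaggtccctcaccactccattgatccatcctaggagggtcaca
The Prox1 window held TATAAA on the opposite strand, the Pdpn window held AGGTCA, and the Mmrn1 window held AACAAT and TGCTGA. No matches overlapped. Among all 32851 promoter windows of the same length, AACAAT was present in 10.7%, AGGTCA in 16.3%, TGCTGA in 19.5% and TATAAA in 13.6%. The 3 windows thus shared none of these letters, and each match is a description of the sequence only.

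Values below are log2 probe set signals. Array background, below which 95% of the 27 bacterial control probe sets fall, lay between 3.42 and 3.91 in tumour samples and between 2.96 and 3.81 in healthy skin, and 39.6 to 48.4% of probe sets in tumours and 41.7 to 56.0% in healthy skin were above it. The mean of 18 hybridization control probe sets was 12.78 to 13.36 on tumour arrays and 12.33 to 13.01 on healthy-skin arrays. The 3′ minus 5′ signal of Gapdh, a sign of RNA integrity, was 2.15 to 4.10 in tumours and 2.77 to 3.72 in healthy skin. That of Actb was much smaller, at -0.63 to 0.60 in tumours and -0.31 to 0.38 in healthy skin, so the 2 controls disagreed. Healthy-skin captures carried more keratinocyte signal and a higher mean of adipocyte markers. The mean of 18 keratinocyte markers was 4.14 to 6.05 in tumours and 7.13 to 7.96 in healthy skin. The mean of 10 adipocyte markers was 4.08 to 4.50 in tumours and 4.97 to 5.27 in healthy skin. These markers disagreed, since 7 were lower in tumours and 3 higher, where 57.3% of all genes had a difference above 0. Their median difference was -0.38 against a mean of -0.855. The tumour values lay below those of healthy skin in 2 of the 10, against 5.36% of all genes, and above them in 0, against 6.58%. Among the 10, Adipoq and Cidec were above background on no array. The part of keratinocytes and adipocytes in the members' values was not tested. The mean of 23 pan-endothelial markers was 5.09 to 5.17 in tumours and 4.18 to 4.58 in healthy skin. Of the 23, 19 had a positive difference, against 57.3% of all genes, and 4 a negative one. The mean of 17 blood endothelial markers overlapped, at 3.84 to 4.41 in tumours and 3.99 to 4.18 in healthy skin, and 3 of them were above background on no array. In such bulk captures, fewer cells of a type and less RNA per cell cannot be told apart, and the part of these differences in the results below was not tested.

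Tumour LECs had more Lyve1 signal than healthy-skin LECs on every array. Smaller positive differences were found for Piezo2 1442115_at, Stab1, Pdpn and the 2 brighter Prox1 probe sets. The brightest probe sets of Maf, Mmrn1 and Reln differed by at most 0.49, while the dimmer ones of Maf ranged from -1.26 to 1.08. None of the 21 probe sets passed an adjusted p of 0.05 by limma, a linear model with variances moderated across all probe sets, against 0.00444% of all probe sets. At an unadjusted p under 0.05 there were 4 of the 21, both of Lyve1 and a probe set each of Prox1 and Maf, against 6.36% of all probe sets. All 4 were higher in tumours, against 2.83% of all probe sets, and none was lower, against 3.53%. The 3 tumour values lay above the 3 healthy-skin values in 5 of the 21, against 6.22% of all probe sets, and below them in 1, Mmrn1 1430621_at, against 4.91%. Differences above 0 were found in 17 of the 21, against 55.5% of all probe sets. With each gene represented by its brightest probe set, 9 of 10 differences were above 0, as were 57.3% over all genes, and the median difference was 0.72, against 0.08 over all 18193 genes. That median includes Foxc2 and Cldn11, which were near or below background.

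**Figure D1:**
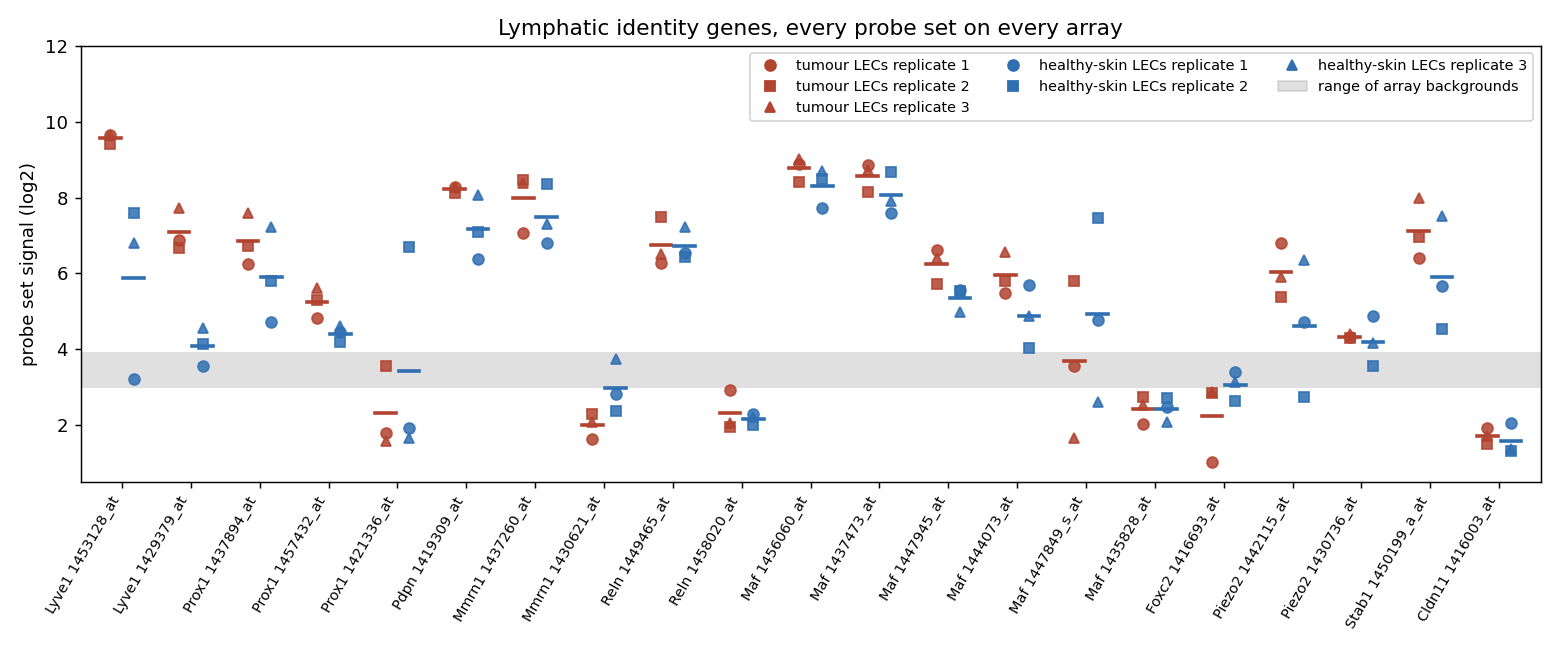
Signal (log2, vertical axis) of all 21 probe sets of the 10 genes (horizontal axis) on each array, with tumour LECs left of healthy-skin LECs, horizontal bars at group means of 3 arrays and a grey band spanning the 6 array backgrounds. The Lyve1 tumour values cluster between 9.41 and 9.65 on 1453128_at, all above the healthy-skin values of 3.21 to 7.58.

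Lyve1 was the member with the largest differences. Its brighter probe set, 1453128_at, had 9.64, 9.41 and 9.65 in tumour replicates 1, 2 and 3, and 3.21, 7.58 and 6.81 in healthy-skin replicates 1, 2 and 3. The tumour arrays were nearly level, whereas healthy-skin replicate 1 was below its background and far under the other healthy-skin arrays. The means were 9.57 ± 0.14 in tumours and 5.87 ± 2.34 in healthy skin (SD, n = 3 arrays per group), a log2 difference of 3.70 with a standard error of 1.06 and a 95% interval of 1.18 to 6.23 (limma adjusted p = 0.626). Without healthy-skin replicate 1 the difference was 2.37, which is 5.17-fold against 13.0-fold with it, and the limma adjusted p was 0.207. The second probe set, 1429379_at, had 6.89, 6.66 and 7.71 in tumours and 3.55, 4.14 and 4.56 in healthy skin. Here too replicate 1 was the lowest of healthy skin and below background, and the groups did not overlap. This difference of 3.00 (standard error 0.41, 95% interval 2.03 to 3.98, limma adjusted p = 0.185) had rank 45 by p among all probe sets, and stayed between 2.69 and 3.25 when any array was left out. The cells of all 6 samples were chosen by LYVE-1 staining, and the part of that choice in the Lyve1 difference was not tested.

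Lyve1 was also set against Prox1, Pdpn, Maf and Mmrn1 within each array. The log2 ratio of Lyve1 to Prox1 was higher by 2.76 in tumours, that to Pdpn by 2.66, that to Maf by 3.23 and that to Mmrn1 by 3.21, each on brightest probe sets. Without healthy-skin replicate 1, where this Lyve1 probe set was below background (an alternative chosen after seeing the data, here and on the endothelial scale below), these differences were 2.02, 1.74, 2.19 and 2.23 in the same order. The 4 ratios share the Lyve1 values. For all 4 ratios every tumour array was above every healthy-skin array. The exact two-sided permutation p was 0.1 for each, and 0.1 after adjustment over the 4, which is the smallest value that 3 against 3 arrays allow. This separation depended on the partner chosen. Ratios to Stab1 or Piezo2 1442115_at would overlap between the groups, and that to Reln 1449465_at would not. In healthy-skin replicate 2, Lyve1 had 7.58, Stab1 4.54 and Piezo2 2.73. In tumour replicate 3, Lyve1 had 9.65, Stab1 7.98 and Piezo2 5.90.

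**Figure D2:**
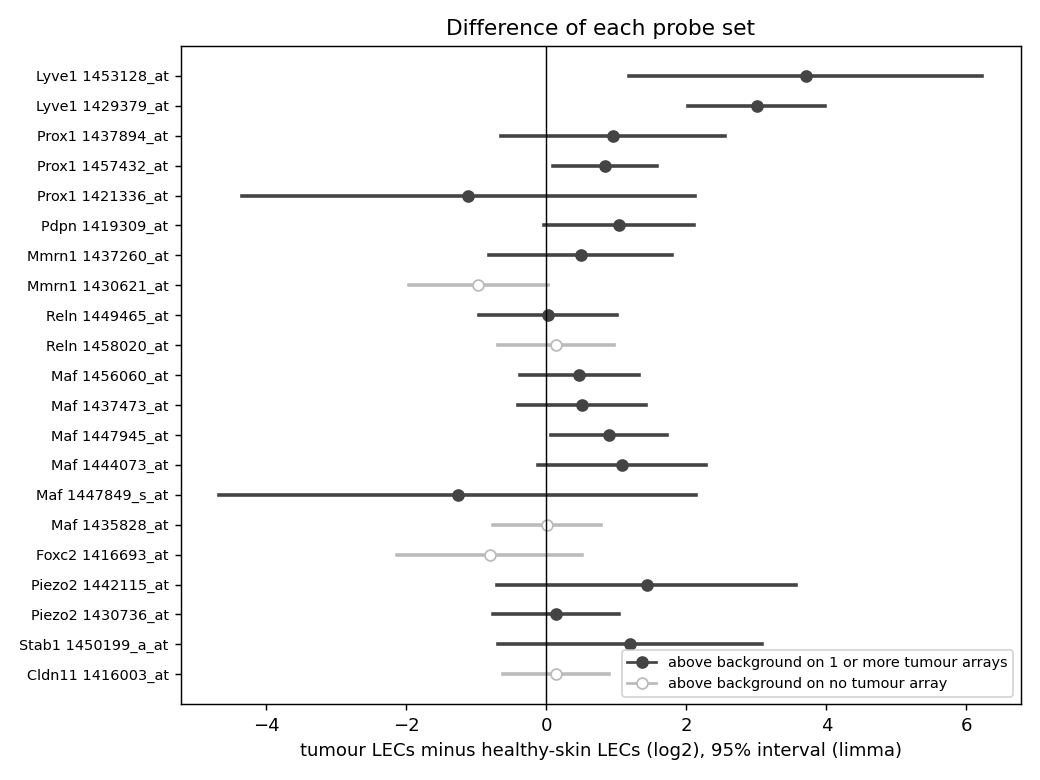
Tumour minus healthy-skin difference of each probe set (log2, horizontal axis) with its 95% interval from limma, 1 row per probe set, and open grey symbols where no tumour array was above background. The intervals of both Lyve1 probe sets, of Prox1 1457432_at and of Maf 1447945_at lie above 0, before any adjustment for multiple testing.

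Among the transcription factors, Prox1 was measured by 3 probe sets that disagreed. The brightest, 1437894_at, had 6.26, 6.73 and 7.58 in tumour replicates 1, 2 and 3, and 4.73, 5.78 and 7.22 in healthy-skin replicates 1, 2 and 3. The groups overlapped, since healthy-skin replicate 3 was above the lower 2 tumour values. The difference was 0.95 with a 95% interval of -0.65 to 2.55 (limma adjusted p = 0.87), and it was 0.35 without healthy-skin replicate 1 and 1.60 without healthy-skin replicate 3. Probe set 1457432_at was tighter, with 4.83, 5.29 and 5.62 in tumours and 4.45, 4.18 and 4.60 in healthy skin. Its groups did not overlap, and its difference was 0.84 (95% interval 0.10 to 1.58, limma adjusted p = 0.733). The third, 1421336_at, was above background only on the arrays numbered 2, with 3.55 in the tumour sample and 6.68 in healthy skin, and its difference of -1.11 (limma adjusted p = 0.914) became 0.52 without healthy-skin replicate 2.

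Maf had 6 probe sets, the most of any member. The brightest, 1456060_at, had 8.89, 8.41 and 9.02 in tumours and 7.73, 8.49 and 8.69 in healthy skin, with overlapping groups. It differed by 0.47 (95% interval -0.38 to 1.32, limma adjusted p = 0.874), and 1437473_at by 0.51 (limma adjusted p = 0.873), and both changed sign when arrays were scaled to their endothelial signal, as given below. The groups of 1447945_at did not overlap, at 6.63, 5.71 and 6.40 in tumours and 5.55, 5.53 and 4.97 in healthy skin, and its difference was 0.89 (95% interval 0.06 to 1.73, limma adjusted p = 0.754). The dimmer 1444073_at differed by 1.08 (limma adjusted p = 0.814) with overlapping groups. Probe set 1447849_s_at spread over 1.66 to 5.79 in tumours and 2.59 to 7.45 in healthy skin, and was highest in replicate 2 of both groups. Its difference was -1.26 (95% interval -4.67 to 2.14, limma adjusted p = 0.908), and with an array left out it ranged from -2.44 to -0.0066. Fibroblast markers were highest on the same arrays, at a mean over 12 genes of 8.77 in tumour replicate 2 and 8.93 in healthy-skin replicate 2. The other arrays had 5.73 to 8.11 in tumours and 7.31 to 7.59 in healthy skin. Macrophage markers (6.89 and 5.19) and pericyte and smooth muscle markers (6.21 and 5.26) were also highest on these arrays. So were adipocyte markers and the other lymphatic genes given below, while keratinocyte, pan-endothelial and blood endothelial markers were not. The part of any of these cell types in this probe set was not tested. The last, 1435828_at, was not above background on any array.

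Foxc2, measured by 1416693_at alone, was not above background on any tumour array, with 1.02, 2.85 and 2.87. In healthy skin it had 3.39, 2.63 and 3.14, and only replicate 3 was above its array's background. No fold change is given, since the healthy-skin mean of 3.05 was below the tumour arrays' own backgrounds.

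Of the surface and junction genes, Pdpn was strongly measured on all arrays. It had 8.26, 8.11 and 8.27 in tumour replicates 1, 2 and 3, and 6.37, 7.09 and 8.07 in healthy-skin replicates 1, 2 and 3. The tumour arrays were level and just above the highest healthy-skin array. The means were 8.22 ± 0.09 in tumours and 7.18 ± 0.85 in healthy skin (SD, n = 3 arrays per group), a difference of 1.04 with a 95% interval of -0.03 to 2.10 (limma adjusted p = 0.794), or 0.63 without healthy-skin replicate 1 and 1.48 without healthy-skin replicate 3. Pdpn is also made by basal keratinocytes. Keratinocyte markers averaged 6.05, 5.69 and 4.14 in tumour replicates 1, 2 and 3. In healthy-skin replicates 1, 2 and 3 they averaged 7.13, 7.44 and 7.96. The list holds markers of basal and of upper epidermal layers, so its mean does not stand for basal cells alone. For several of its basal genes, though not all, the groups overlapped. The part of keratinocytes in the Pdpn values was not tested.

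Stab1 encodes stabilin-1, a scavenger receptor of lymphatic and sinusoidal endothelium and of macrophages. Its probe set 1450199_a_at had 6.39, 6.95 and 7.98 in tumours and 5.66, 4.54 and 7.52 in healthy skin. The groups overlapped and the difference was 1.20 (95% interval -0.69 to 3.09, limma adjusted p = 0.868), between 0.52 without healthy-skin replicate 2 and 2.01 without healthy-skin replicate 3. Macrophage markers averaged 5.15, 6.89 and 5.41 in tumour replicates 1, 2 and 3 and 4.90 to 5.19 in healthy skin over 18 genes. Of these 16 had a positive difference, against 57.3% of all genes, and none passed over all probe sets. Timd4 and Itgam were above background on no array, and the other 16 on at least 1. The part of macrophages in the Stab1, Lyve1 and Maf values was not tested.

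Piezo2, a mechanically gated ion channel, had 2 probe sets. On 1442115_at it had 6.80, 5.38 and 5.90 in tumours and 4.71, 2.73 and 6.36 in healthy skin, where replicate 2 was below background and replicate 3 exceeded 2 of the tumour values. Its difference was 1.43 (95% interval -0.70 to 3.56, limma adjusted p = 0.868), or 0.50 without healthy-skin replicate 2. The other, 1430736_at, had 4.31, 4.29 and 4.39 in tumours and 4.87, 3.55 and 4.15 in healthy skin, so that the groups overlapped at nearly equal means (difference 0.14, 95% interval -0.76 to 1.04, limma adjusted p = 0.968). A list of Schwann, nerve and Merkel cell markers (11 measured) averaged 4.42 to 4.90 in tumours and 4.05 to 4.54 in healthy skin. Of its Merkel and neuroendocrine genes, Chga was above background on 6 arrays, Atoh1 on 3, Syp on 2 and Krt20 on none, and the part of nerve or Merkel cells in the Piezo2 values was not tested. Cldn11, a claudin of tight junctions, was above background on no array of either group, with 1.50 to 1.93 in tumours and 1.30 to 2.06 in healthy skin, so no statement on it can be made.

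Of the 2 secreted proteins, Mmrn1 encodes multimerin-1, a large glycoprotein stored in platelets and endothelium. Its probe set 1437260_at had 7.08, 8.46 and 8.40 in tumour replicates 1, 2 and 3, and 6.80, 8.35 and 7.31 in healthy-skin replicates 1, 2 and 3. Replicate 1 was the lowest of each group and the groups overlapped, with a difference of 0.49 (95% interval -0.81 to 1.79, limma adjusted p = 0.908). Its other probe set, 1430621_at, was above background in healthy-skin replicate 3 only, at 3.73. Reln encodes reelin, a secreted glycoprotein that LECs release. On 1449465_at it had 6.28, 7.48 and 6.50 in tumours and 6.55, 6.43 and 7.22 in healthy skin. The groups overlapped throughout, with means of 6.75 ± 0.64 in tumours and 6.73 ± 0.43 in healthy skin (SD, n = 3 arrays per group). The 95% interval of the difference was -0.97 to 1.01 (limma adjusted p = 0.996). Its other probe set, 1458020_at, was above background on no array.

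The SD was larger in healthy skin than in tumours for 14 of the 21 probe sets, against 55.6% of all probe sets. Healthy-skin replicate 1 had the lowest healthy-skin value for 7 of the 21, against 22.2% of all probe sets, and among them were the brightest probe sets of Lyve1, Prox1, Pdpn, Mmrn1 and Maf. On that array Pecam1, an adhesion molecule of all endothelium, was also lowest at 4.07, while the mean over the pan-endothelial markers, 4.58, was the highest of healthy skin. The plot of members beside marker lists shows these values array by array.

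**Figure D3:**
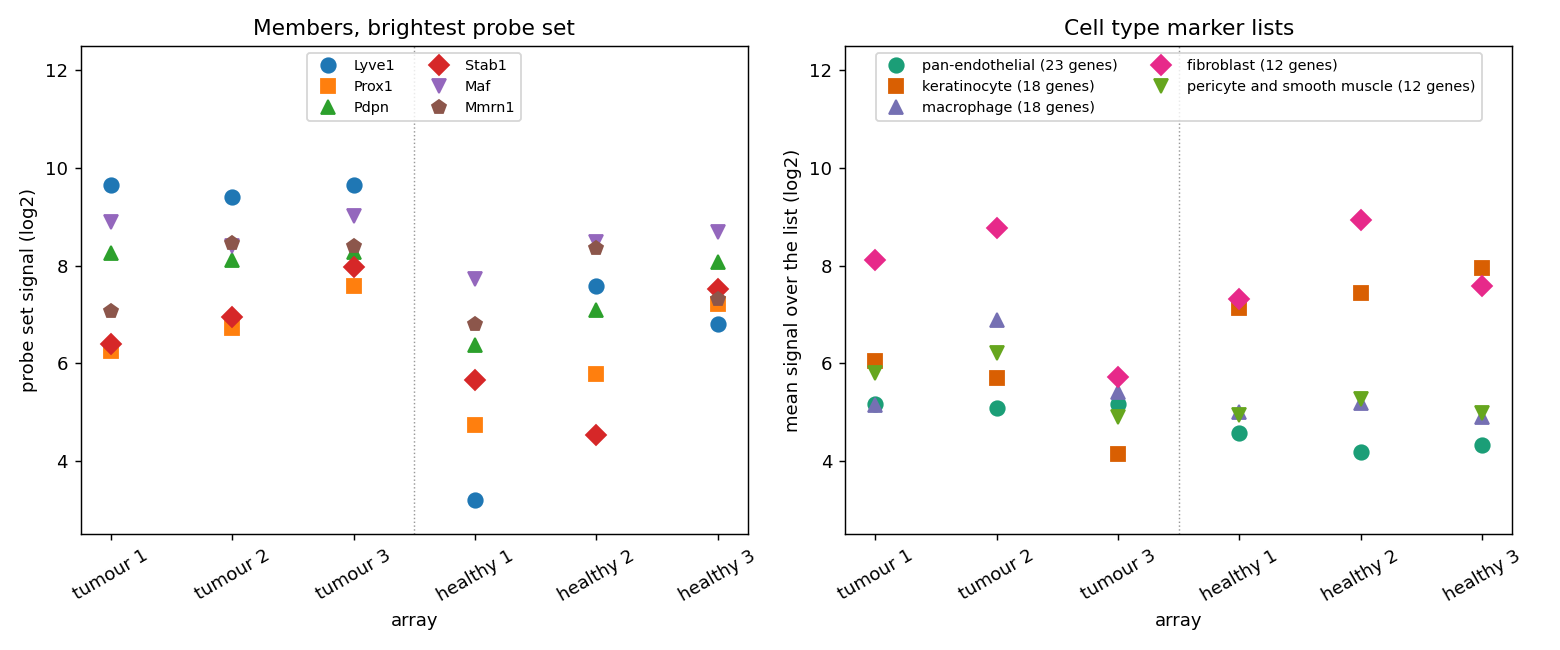
Left, signal (log2) of the brightest probe set of 6 members on each array. Right, mean signal (log2) of 5 cell type marker lists on the same arrays, with tumour arrays left of the dotted line and healthy-skin arrays right of it. Healthy-skin replicate 1 is low for Lyve1 (3.21), Prox1 (4.73) and Pdpn (6.37), while keratinocyte markers are at 7.13 to 7.96 in healthy skin and at 4.14 to 6.05 in tumours.

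Because the pan-endothelial mean was higher in tumour captures, though that of blood endothelial markers was not clearly so, each array was also scaled to its pan-endothelial mean. Scaling to these 23 markers lowered every difference by 0.78, the mean difference of the markers. It moved the median difference of all probe sets to -0.72. On this scale 8.33% of all genes had a difference above 0, against 57.3% without it, and of the 10 members 5 were above 0 and 5 below, with a median of -0.06. Lyve1 had values relative to the endothelial mean of 4.47, 4.31 and 4.49 in tumours and -1.37, 3.40 and 2.48 in healthy skin on 1453128_at. The 2 Lyve1 probe sets were the ones of the 21 that were higher without overlap, against 0.357% of all probe sets on this scale, and 5 of the 21 were lower without overlap, against 45.6%. None of the 21 passed an adjusted p of 0.05, against 0.0577% of all probe sets. The Lyve1 differences were 2.92 on 1453128_at and 2.23 on 1429379_at (limma adjusted p = 0.129 and 0.0994). Their unadjusted limma p was 0.0435 and 0.00193, against 0.0106 and 0.000184 without the scaling. The unadjusted p thus rose, while the adjusted p, which depends on all probe sets, fell. Without healthy-skin replicate 1 the Lyve1 differences were 1.49 and 1.85, which on 1453128_at is 2.80-fold against 7.59-fold with that array (limma adjusted p = 0.112 and 0.0975). The brightest probe sets of Prox1 and Pdpn were near 0 on this scale, with differences of 0.17 and 0.26 that turned to -0.53 and -0.25 without healthy-skin replicate 1, and Stab1 had 0.42. The difference turned to -0.29 for Mmrn1, -0.31 for Maf and -0.75 for Reln on their brightest probe sets, and their groups overlapped.

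**Figure D4:**
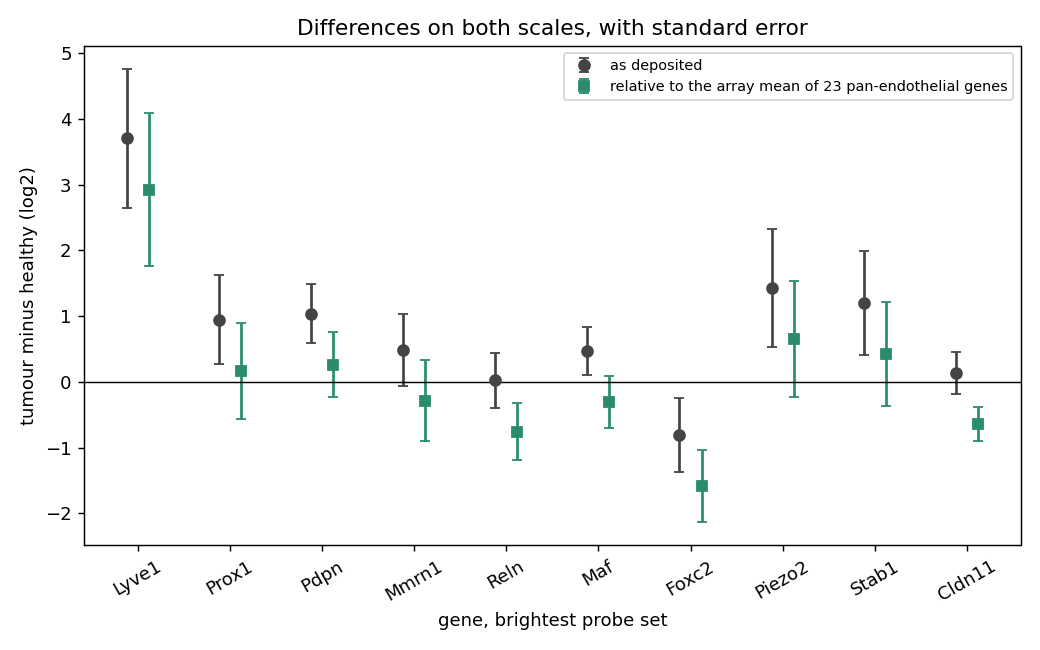
Tumour minus healthy-skin difference (log2, vertical axis) of the brightest probe set of each gene, as deposited (grey circles) and relative to the array mean of 23 pan-endothelial genes (green squares), with bars for the standard error from limma. Lyve1 is at 3.70 and 2.92, and Prox1 is at 0.95 and 0.17.

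Of 43 other genes of lymphatic development and function, 40 were measured, and 30 had a positive difference, against 57.3% of all genes, and 10 a negative one, with a median of 0.42 against 0.08 over all genes. None passed an adjusted p of 0.05. The tumour values lay above those of healthy skin in 9 of the 40 and below in 1, against 6.58% and 5.36% of all genes. Of the 40, 2 were above background on no array, and both were among these 9. On the endothelial scale, 15 of the 40 differences were above 0, against 8.33% of all genes. The 4 genes with the smallest p were Ackr2, a scavenging chemokine receptor, Itga9, an integrin subunit of lymphatic valves, Flt4, the receptor for VEGF-C, and Fat4, an atypical cadherin. Flt4, whose signal sustains LECs, had 9.49, 9.63 and 9.57 in tumours and 7.30, 7.57 and 8.50 in healthy skin, so that the tumour arrays were level and above every healthy-skin array, as for Lyve1 and Pdpn (limma adjusted p = 0.45). Ackr2 had 7.41, 8.03 and 8.14 in tumours and 5.37, 5.67 and 4.85 in healthy skin (limma adjusted p = 0.185). Itga9 had 7.23, 6.72 and 7.44 in tumours and 5.15, 5.52 and 5.17 in healthy skin (limma adjusted p = 0.301). Fat4 ran the other way, with 0.90, 1.92 and 3.22 in tumours, below background throughout, and 6.22, 4.46 and 3.90 in healthy skin (limma adjusted p = 0.594).

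Genes whose profile over the 6 arrays was most like that of a member were sought among 11623 genes by the root mean square (RMS) difference of log2 values, each centred on its own mean. The nearest to Lyve1 was Sat1, which encodes a polyamine acetyltransferase, at an RMS difference of 0.30. It had 8.92, 8.17 and 9.14 in tumours and 2.84, 6.57 and 5.85 in healthy skin, so it too was lowest in healthy-skin replicate 1. Hnrnpr (0.74), Cnot4 (0.84), Fam98b (0.89) and Nfix (0.98) followed at much larger RMS differences. The 5 nearest to Prox1 were Purb, Utp4, Eif3k, Cd47 and Gatad2a, at 0.28 to 0.30. The 5 nearest to Pdpn were 4930526I15Rik, Ppfibp1, Smurf2, Gtf2a1 and B3gnt2, at 0.12 to 0.22. No member of the 10 was among these neighbours. Among the members themselves the closest pair by brightest probe set was Maf and Pdpn (RMS difference 0.40), followed by Pdpn and Prox1 (0.45), and Lyve1 was no nearer than 1.70 to any other.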

How the data were processed

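The authors deposited 1 intensity value per probe set and array on a linear scale, made with RMA per the submitters' processing notes. RMA as usually run corrects background, quantile-normalizes probes across arrays and summarises them per probe set, which would remove overall differences in RNA amount. For its version and the genome build, the sources used here give nothing. That the scale is linear follows from the values, with array medians of 9.49 to 10.93. The arrays' distributions are thus not identical as deposited, and quantile normalization of them moved the difference of Lyve1 1453128_at to 4.03 and that of Maf 1456060_at to 0.72. Here log2 of each value was taken, with no pseudocount. The 64 control probe sets were left out, and 45037 were tested. Symbols came from the platform annotation (34945 probe sets with 1 symbol, 932 with several, 9160 with none), and 34741 matched RefSeq by Entrez identifier. A gene was represented by its probe set with the highest mean over 6 arrays.

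The comparison was fitted in R 4.3.3 with limma 3.58.1 (lmFit and eBayes with 2.82 prior degrees of freedom, two-sided) and Benjamini-Hochberg adjustment over all probe sets. The script was tested on simulated data. Members and lists were chosen with earlier results of these data known. The naming rule took every probe set of the 10 genes, up to 4 other lymphatic genes by smallest p, 5 nearest neighbours each of Lyve1, Prox1 and Pdpn, and up to 3 genes of each marker list by signal, which are given here only as list means. Marker genes named singly (Pecam1, Timd4, Itgam, Chga, Atoh1, Syp, Krt20, Adipoq and Cidec) were chosen after their values were seen. The number of arrays limits the precision. Alternatives were centring on array medians or on the pan-endothelial mean, quantile normalization, leaving out dim probe sets, a replicate block, a pseudocount of 16, eBayes with trend and robust options, other summaries of a gene, and each array left out.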

Additional observations from a re-analysis of the deposited data

How the results depend on the processing

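No member probe set passed the threshold under any alternative run, and their smallest limma adjusted p ranged from 0.0994 to 0.533, or 0.0975 with pan-endothelial centring and without healthy-skin replicate 1. Over all probe sets limma called 2, against 21 with the filter on dim probe sets, 0 after centring on array medians, 26 after centring on the pan-endothelial mean, 0 with the replicate block, 0 with a pseudocount of 16, 1 with eBayes trend and robust options, and 0 to 23 with an array left out. The cause was not tested, apart from the filter, which left 22179 probe sets. The replicate block changed no call of a member. Same-numbered samples correlated in their deviations from group means by 0.05, 0.13 and -0.01 for replicates 1, 2 and 3. Tumour replicate 3 correlated best with healthy-skin replicate 1 (0.14), and the 2 samples numbered 2 correlated best with each other. With 3 arrays per group these correlations cannot decide whether same-numbered samples were paired, and the labels give only the number. The median difference of the 10 genes, 0.72, was 0.37 to 1.07 with an array left out, -0.059 after centring on the pan-endothelial mean and 0.14 with the dimmest probe set of each gene, several of which lie below background. The count of members with a positive difference, 9, was 5 after pan-endothelial centring and 8 to 9 with an array left out, and for the other lymphatic genes 30 became 15 and 27 to 31 (alternatives chosen after seeing the data).

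Signs turned as follows. Pan-endothelial centring lowers every difference by 0.78, so any positive difference smaller than that turns by construction. Of the probe sets below, Cldn11, Maf 1435828_at and Reln 1458020_at were above background on no array. After pan-endothelial centring the differences were -0.64 for Cldn11, -0.64 for Piezo2 1430736_at, -0.77, -0.27 and -0.31 for Maf 1435828_at, 1437473_at and 1456060_at, -0.29 for Mmrn1 1437260_at, and -0.75 and -0.64 for Reln 1449465_at and 1458020_at. After quantile normalization Maf 1435828_at had -0.037, and after centring on array medians it had -0.033 and Reln 1449465_at had -0.015. With an array left out, Maf 1435828_at ranged over -0.17 to 0.21, Reln 1449465_at over -0.34 to 0.27, Reln 1458020_at over -0.18 to 0.32, Piezo2 1430736_at over -0.18 to 0.48 and Prox1 1421336_at over -1.99 to 0.52. Both Lyve1 probe sets, the brighter 2 of Prox1, Pdpn, Stab1 and Piezo2 1442115_at kept a positive difference under every alternative that changed 1 choice. The same held for Maf 1444073_at and 1447945_at, which had 0.30 and 0.12 after pan-endothelial centring. With pan-endothelial centring and without healthy-skin replicate 1 together, the brighter 2 of Prox1 had -0.53 and -0.03 and Pdpn -0.25.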
